A study of Mus musculus with 12 samples.

Results

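Neural stem cells (NSCs) without Ncf1 that had received recombinant Igfbp2 were compared with NSCs of the same genotype that had received vehicle. The 8 libraries of this comparison were chosen by their labels from the 12 libraries of the series. They fell into 4 vehicle-treated and 4 Igfbp2-treated cultures, numbered 1 to 4 and 5 to 8 here as in their labels. The other 4 libraries, numbered 9 to 12, came from untreated wild-type (WT) NSCs and served only as a reference level and for the estimate of spread. All cultures were primary NSCs from the forebrain of newborn mouse pups. They grew in serum-free medium with EGF, FGF, insulin, transferrin, selenite and B-27, so that mitogens and insulin were present in both arms. The labels give a dose of 100 ng/ml mouse recombinant Igfbp2, added 48 h after plating, with RNA taken 48 h later. The methods of the study give a lower dose, and the dose was therefore not settled here. The deletion of Ncf1 was carried by both arms, so the comparison shows what differed on that background and not in WT cells, which received no Igfbp2.

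Igfbp2 is a secreted binding protein for the insulin-like growth factors Igf1 and Igf2. It can hold these ligands away from their receptor or carry them to it, and it also has a motif that binds integrins and a stretch that binds heparin and cell-surface proteoglycans. The Igf1 receptor passes its signal through insulin receptor substrates to the PI3K-AKT-mTOR and RAS-ERK cascades, and ERK signalling turns on immediate early genes, which respond to mitogens without new protein synthesis, and feedback inhibitors such as sproutys and dual-specificity phosphatases. Ncf1, also known as p47phox, is the cytosolic organiser of NADPH oxidase 2, an enzyme that produces superoxide.

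Total RNA depleted of ribosomal RNA was sequenced to between 18216794 and 23853851 estimated counts per vehicle-treated library and between 18201622 and 22837749 per Igfbp2-treated one. The deleted gene could not check the genotype labels, because its counts were near 0 everywhere. Ncf1 had 4, 4, 2 and 2 counts in vehicle-treated, 1, 1, 1 and 1 counts in Igfbp2-treated and 2, 3, 7 and 4 counts in WT libraries. Sex-linked genes separated the treatments. With vehicle the Y-linked genes summed to 105.3 to 115.5 CPM (read counts scaled to a common library size). With Igfbp2 the sum was 7.795 to 9.18 CPM. Xist, the RNA that coats the inactive X chromosome, was at 87.8, 81.6, 72.3 and 82.5 CPM in vehicle-treated and at 166, 265, 265 and 275 CPM in Igfbp2-treated cultures, with no overlap. For both measures an exact permutation test of 4 against 4 gave p = 0.0286 (two-sided), the smallest value it can give. WT libraries 9 to 11 had Y-linked sums of 106.8 to 118.3 CPM and Xist at 3.87 to 5.22 CPM, and WT library 12 had 6.46 and 291 CPM. The methods describe paired cultures of each animal. The Y-linked values go against that pairing, and the residuals of the study's pairs correlated at only -0.0673 to 0.0328. Treatment and the sex or source of the cultures therefore cannot be told apart in these libraries, and this holds for every difference below. Nothing in the labels names the animals, so that each p-value measures a spread between cultures, which may be technical. For the edgeR p-values that spread is pooled over all 12 libraries, WT included. The coefficient of variation between libraries that edgeR estimated was 0.25 in WT, 0.116 in vehicle-treated and 0.121 in Igfbp2-treated cultures.

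**Figure D1:**
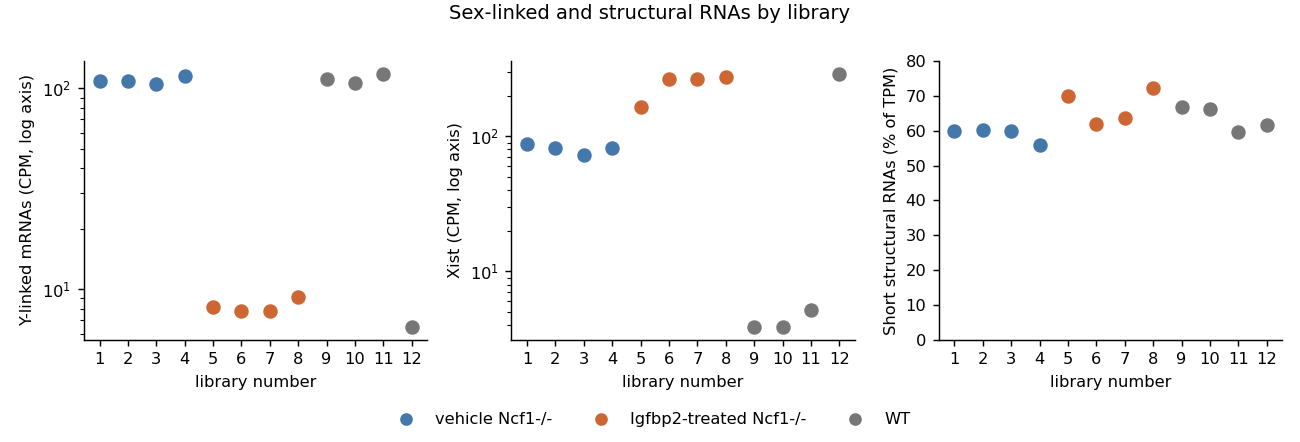
Library-level measures of the 12 libraries, one point per library by its number, with vehicle-treated Ncf1-/- in blue, Igfbp2-treated Ncf1-/- in orange and WT in grey. The panels show the Y-linked sum and Xist (CPM, log axes) and the share of TPM taken by short structural RNAs (%). The 4 Igfbp2-treated libraries sit below 10 CPM in the Y-linked sum while all vehicle-treated ones sit above 105 CPM, and the share of structural RNAs ranged from 62.1 to 72.3% after treatment against 56.0 to 60.3% with vehicle.

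In many called genes WT library 12 also lay at the end of the WT range on the side of the treated arm. The counts that follow include genes on the X and Y chromosomes, and closeness to the treated cultures was not measured. WT library 12 was the highest of the 4 WT libraries in 54.2% of the 2238 genes that were higher after Igfbp2, against 24.9% of all 15706 genes tested. It was the lowest in 57.1% of the 1685 genes that were lower, against 25.5% of all genes tested. What WT library 12 and the treated cultures share beyond the sex-linked genes was not tested.

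Expression differed widely between the arms. Of 15706 genes tested, 3923 (25%) were called at an adjusted p under 0.05, of which 2238 (14.2%) were higher and 1685 (10.7%) lower in Igfbp2-treated cultures. A change of at least 2-fold was seen in 421 of the higher and 493 of the lower genes. The 4 values of one arm did not overlap with those of the other in 5350 genes (34.1%), and 3480 of these were called. The median of all log2 fold changes was 0.04 and the median standard error 0.14. The first principal component of the 8 libraries held 50.7% of the variance and separated the treatments. The split into higher and lower genes depended on the scaling. It was 57% higher among called genes with TMM factors, 35.7% with upper-quartile factors (1427 higher and 2566 lower) and 11% with library totals (648 higher and 5258 lower, 4.13% and 33.5% of genes tested). After an offset for GC content and length it was 44.4% (1666 higher, 10.7%, and 2088 lower, 13.4%, of 15607 genes), and on TPM values only 200 genes were called higher and 6154 lower. Single vehicle-treated libraries moved the counts. Without vehicle library 1 there were 2325 calls (1292 higher and 1033 lower), without vehicle library 2 there were 2272 (1062 higher and 1210 lower), and without vehicle library 3 the higher calls numbered 1212. In bulk RNA of this kind, fewer cells of a type and less RNA per cell cannot be told apart.

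**Figure D2:**
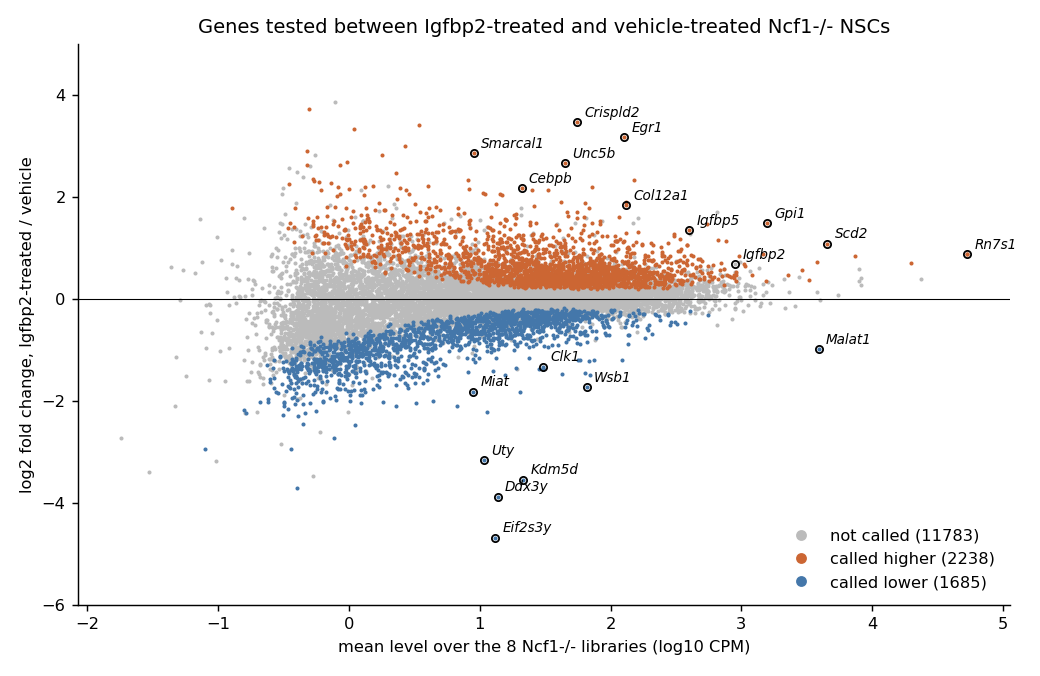
Log2 fold change (Igfbp2-treated over vehicle-treated) of the 15706 genes tested against their mean level over the 8 Ncf1-/- libraries (log10 CPM), one point per gene, with genes called higher in orange, called lower in blue and not called in grey, and with circles round the genes labelled. Crispld2 and Egr1 lie at the top among the labelled genes and the Y-linked genes Eif2s3y, Ddx3y, Kdm5d and Uty at the bottom.

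Among genes averaging 5 CPM or more across these libraries, the largest rise was that of Crispld2, a secreted cysteine-rich protein known as a glucocorticoid-responsive gene. Crispld2 stood at 6.665, 7.35, 11.96 and 11.1 CPM in vehicle-treated and at 112, 85.3, 96.9 and 115 CPM in Igfbp2-treated cultures, and the arms were far apart. Its log2 fold change was 3.46 (edgeR SE 0.44, adjusted p 0.000677). Other genes among the 25 largest rises fell into a few kinds. Unc5b, a netrin receptor, rose from between 7.798 and 16.2 to between 68.2 and 91.8 CPM. Cebpb, a transcription factor of stress and differentiation, rose from between 5.315 and 10.3 to between 27.3 and 41.6 CPM. Several encode secreted or neuronal activity-linked proteins, among them Scg2, the granule protein secretogranin II, at 2.18 to 3.77 and 11.7 to 17.4 CPM in vehicle-treated and treated libraries. Nptx1, a pentraxin that gathers glutamate receptors, had a log2 fold change of 2.13 (edgeR SE 0.24, adjusted p 0.000437). Sik1, a kinase induced by cyclic AMP, had one of 2.05 (edgeR SE 0.25, adjusted p 0.000546). Car4, a membrane carbonic anhydrase, Ucp2, an uncoupling protein of mitochondria, and Pygm, a glycogen phosphorylase, rose by 2.34, 1.79 and 1.78 on the log2 scale. The call of Ucp2 was lost without vehicle library 1, 2, 3 or 4 or Igfbp2 library 5 or 8 (adjusted p up to 0.0732). Cd93, a C-type lectin receptor that endothelial cells also carry, stood at 35.6 to 81.8 CPM with vehicle, 162.5 to 282 CPM with Igfbp2 and 0.432 to 3.07 CPM in WT cultures. WT library 12 was the highest WT library in 13 of these 25 genes.

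**Figure D3:**
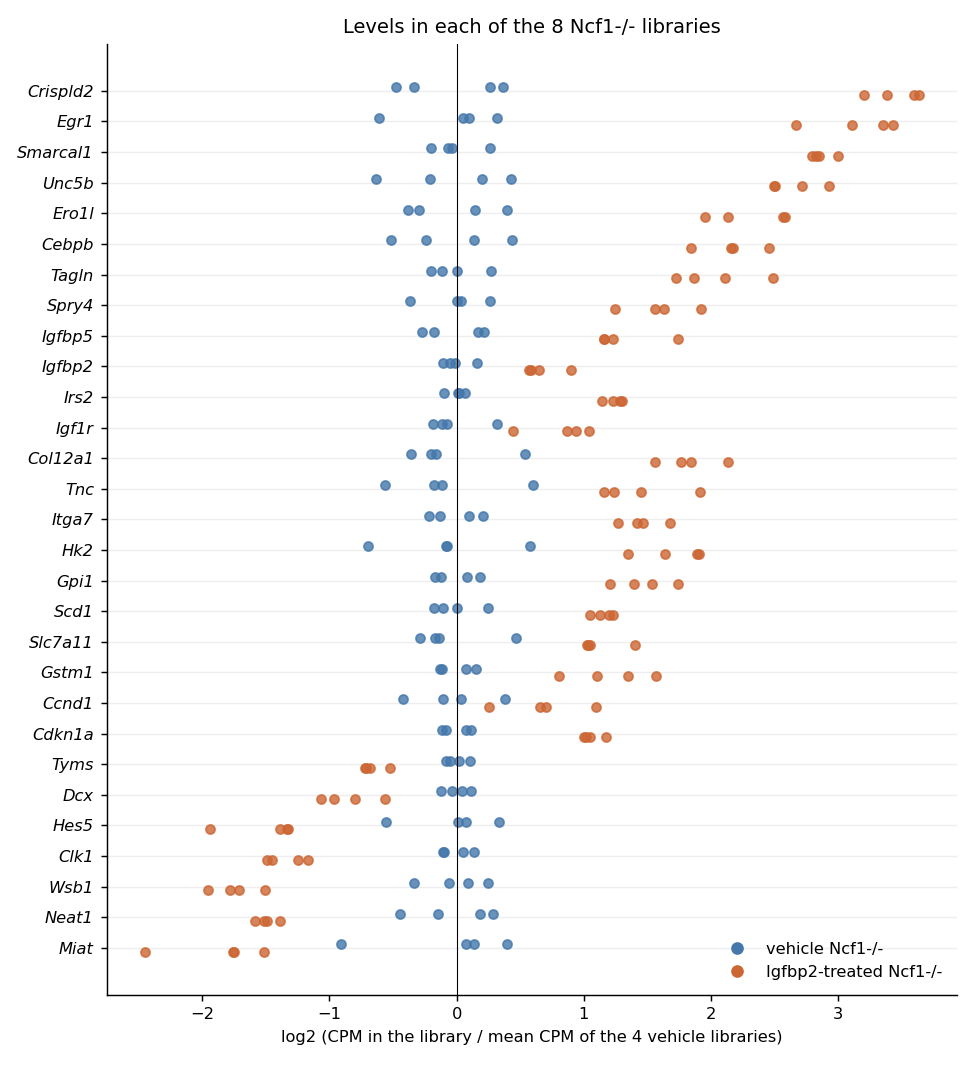
Level of 29 genes in each of the 8 Ncf1-/- libraries, as log2 of the CPM over the mean CPM of the 4 vehicle-treated libraries, one row per gene, with vehicle-treated libraries in blue and Igfbp2-treated ones in orange. The orange points lie apart from the blue ones for nearly every gene, with Crispld2 and Egr1 farthest to the right and Miat, Wsb1 and Neat1 to the left, and for Ccnd1 the arms overlap.

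The IGF system, to which the added protein belongs, moved upward. Of 22 genes in the list 18 could be tested, and 11 of them were higher and none lower, against 14.2% and 10.7% of all genes. Their median log2 fold change was 0.82, against 0.04 for all genes, and it was 0.54 with an offset for GC content and length and 0.55, 0.72, 0.81 and 0.83 with library totals, upper-quartile factors, DESeq2 and structural RNAs removed. The higher count was 6 without vehicle library 1 or 2 and 7 without vehicle library 3 or Igfbp2 library 6 or 7, and with library totals there were 6 higher and 1 lower. All 3 receptors rose. Igf1r, the main signalling receptor, was at 30.8, 30.04, 28.5 and 40.4 CPM with vehicle and at 44.2, 62.1, 66.7 and 59.1 CPM with Igfbp2. These values did not overlap, and the log2 fold change was 0.84 (edgeR SE 0.14, adjusted p 0.00179). Insr, the insulin receptor, rose by 0.75 (edgeR SE 0.14, adjusted p 0.00291) on the log2 scale, and Igf2r, which clears Igf2 to lysosomes, by 0.81 (edgeR SE 0.18, adjusted p 0.00846). Irs2, an adaptor that couples these receptors to PI3K, stood at 60.3, 67.6, 65.5 and 65.1 CPM with vehicle and at 142.5, 157, 159 and 151 CPM with Igfbp2. Its log2 fold change was 1.24 (edgeR SE 0.15, adjusted p 0.000496), with WT cultures at 96.4 to 167 CPM. The ligands were scarce and were not called. Igf2 was at 1.31, 1.31, 1.99 and 1.53 CPM with vehicle and 3.32, 3.61, 2.73 and 4.86 CPM with Igfbp2 (adjusted p = 0.164), and Igf1 at 1.002, 1.355, 0.971 and 2.05 CPM with vehicle and 2.77, 2.404, 3.01 and 2.11 CPM with Igfbp2 (adjusted p = 0.0572). Both lay higher in every treated library than in any vehicle-treated one.

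Among the binding proteins, Igfbp5, which binds IGFs and matrix, was at 187, 199.5, 253.5 and 262.5 CPM with vehicle and at 505, 528, 504 and 754 CPM with Igfbp2, a log2 fold change of 1.34 (edgeR SE 0.25, adjusted p 0.00332). Igfbp7, a low-affinity relative, rose by 1.54 (edgeR SE 0.38, adjusted p 0.013), and Igfbp3, the main carrier in serum, by 0.98 (edgeR SE 0.32, adjusted p 0.0383). Igfbp4 was at 152 to 178 CPM with vehicle and 233 to 275 CPM with Igfbp2 and was not called (adjusted p = 0.18). The stanniocalcins Stc1 and Stc2, secreted inhibitors of the proteases that cut Igfbp4, were both higher. Stc2 stood at 7.84, 7.89, 10.02 and 9.81 CPM with vehicle and 26.97, 23.9, 29.6 and 31.4 CPM with Igfbp2, and WT library 12 at 16.98 CPM against 1.56 to 3.18 CPM in the other WT cultures. The calls of Stc1 and Stc2 were lost when any one of the 8 Ncf1-/- libraries was left out (adjusted p up to 0.128 and 0.0892). That of Igfbp3 was lost without vehicle library 1, 2 or 3 or Igfbp2 library 5, 6 or 7 (up to 0.114) and with the GC and length offset.

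The gene of the added protein was itself higher in each treated culture, but not past the threshold. Igfbp2 mRNA stood at 678, 659.6, 768 and 636 CPM with vehicle and at 1278, 1030, 1016 and 1076 CPM with Igfbp2. The arms did not overlap, and the log2 fold change was 0.68 (edgeR SE 0.51, adjusted p 0.338) with the spread of all 12 libraries. In a fit of the 8 Ncf1-/- libraries alone the adjusted p was 0.000332. WT cultures ranged widely, at 28.9, 27.4, 228 and 108 CPM. The gene lies at chr1:72824503-72852474 (GRCm38, plus strand), and of the 10 tested genes on either side 6 (30%) were called, against 25% of all genes in either direction. They were Pecr, March4, Smarcal1, Igfbp5, Tns1 and Pnkd, all higher, where 14.2% of all genes were called higher. Pnkd turned negative on TPM values and lost its call without vehicle library 2 or 3 (adjusted p up to 0.0765). Smarcal1, a DNA-dependent ATPase that rewinds and remodels stalled replication forks, lies at chr1:72583251-72633134 and had the third largest rise among genes at that level. It stood at 2.61, 2.08, 1.898 and 2.13 CPM with vehicle and at 15.1, 17.4, 15.4 and 15.7 CPM with Igfbp2. The difference was 7.26-fold, a log2 fold change of 2.86 (edgeR SE 0.12, adjusted p 4.07e-08), with narrow spread in both arms. WT cultures held 34.6, 39.99, 42.5 and 35.7 CPM, above both. Tns1, a tensin that links integrins to actin, stood at 55.8 to 59.99 CPM with vehicle and 86 to 108 CPM with Igfbp2. Pecr, an enzyme of fatty acid elongation, and March4, a ubiquitin ligase, lost their calls without single libraries, Pecr without vehicle library 1, 2, 3 or 4 or Igfbp2 library 5, 6, 7 or 8 or WT library 10 (adjusted p up to 0.165) and March4 without vehicle library 1, 2 or 3 or Igfbp2 library 6, 7 or 8 (up to 0.116).

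The PI3K-AKT-mTOR list was less marked. Of 27 tested members 6 were higher (22.2%, against 14.2% of all genes) and none lower (10.7% of all genes), with a median of 0.17. With the offset for GC content and length 5 were higher and 4 lower, and with library totals there were 3 higher and 3 lower, with a median of -0.09. Higher calls numbered 12 without vehicle library 4. Its called members included Foxo1 and Foxo3, forkhead factors that AKT keeps out of the nucleus. Foxo3 stood at 83.2, 90.95, 92.2 and 107 CPM with vehicle and at 149, 175.5, 158 and 191 CPM with Igfbp2, a log2 fold change of 0.85 (edgeR SE 0.14, adjusted p 0.0021). Foxo1 rose by 0.73 (edgeR SE 0.15, adjusted p 0.00473). These 2 factors and Foxo6 were 3 of the 4 target factors in the list. Foxo6 was scarce (0.697 to 1.38 and 2.73 to 2.88 CPM) and lost its call without vehicle library 1 or 2 (adjusted p up to 0.0654).

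Immediate early genes were higher as a group. All 29 of the list were tested, 16 rose and none fell (14.2% and 10.7% of all genes), and the median was 0.83. The 4 early growth response factors, zinc-finger proteins induced by ERK, all rose. Egr1 was at 16.6, 26.3, 27.1 and 31.6 CPM with vehicle and at 274, 218.5, 259 and 161 CPM with Igfbp2. The lowest treated culture lay far above the highest vehicle-treated one, and the log2 fold change was 3.17 (edgeR SE 0.35, adjusted p 0.000397). WT cultures were at 21.2, 71.8, 71.97 and 41.8 CPM. Egr2 rose from between 5.47 and 6.89 to between 14.01 and 25.25 CPM, and Egr3 and Egr4, both scarce, had log2 fold changes of 2.63 and 2.17. Of the AP1 factors, which bind DNA as dimers of Fos and Jun proteins, 4 of 8 were called. Fosb stood at 0.6099, 0.435, 0.883 and 0.448 CPM with vehicle and at 6.81, 5.71, 3.25 and 3.39 CPM with Igfbp2, a log2 fold change of 2.997 (edgeR SE 0.54, adjusted p 0.00272). Junb rose by 1.49 (edgeR SE 0.36, adjusted p 0.0108) and Jun by 0.59 (edgeR SE 0.10, adjusted p 0.00166). Fos stood at 26.1, 26.1, 26.8 and 21.45 CPM with vehicle and at 61.85, 58.6, 44.8 and 50.3 CPM with Igfbp2 (adjusted p = 0.0335), and the call was lost without vehicle library 1, 2, 3 or 4 or Igfbp2 library 5, 6 or 8 (up to 0.0797). Not all stress-induced members moved, since Atf3 was at 4.45 to 6.75 CPM with vehicle and 4.43 to 5.204 CPM with Igfbp2 (adjusted p = 0.702).

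Other members of the list encode regulators of RNA and of cell survival. Ier3, a short-lived survival protein, was at 21.7, 27.1, 28.2 and 26.7 CPM with vehicle and at 135, 103, 127 and 109 CPM with Igfbp2. Its log2 fold change was 2.19 (edgeR SE 0.53, adjusted p 0.0114), with WT cultures at 1.455 to 18.8 CPM. Zfp36, a protein that binds AU-rich elements and sends mRNAs to decay, stood at 3.96, 4.35, 4.11 and 3.54 CPM with vehicle and at 13.5, 10.2, 8.61 and 8.445 CPM with Igfbp2, a log2 fold change of 1.35 (edgeR SE 0.19, adjusted p 0.00091). Ier2 and Klf10 rose by 0.998 and 0.96. Arc, a synaptic capsid-like protein, rose from between 1.22 and 1.94 to between 2.65 and 8.704 CPM, and its call was lost without vehicle library 1, 2 or 3 or Igfbp2 library 5, 6 or 7 (adjusted p up to 0.0935) and with the GC and length offset.

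Feedback inhibitors and targets of ERK moved with them. Of 20 tested members 12 were higher (60%, against 14.2% of all genes) and none lower (10.7% of all genes), with a median of 0.51. With the GC and length offset 12 were higher and 2 lower, and with library totals there were 6 higher and 1 lower. Sproutys are intracellular brakes on receptor tyrosine kinases. Spry4 stood at 44.9, 57.9, 58.99 and 69.1 CPM with vehicle and at 178, 170.0, 218 and 137 CPM with Igfbp2, a log2 fold change of 1.61 (edgeR SE 0.16, adjusted p 0.000359). Spry1 and Spry2 rose by 0.82 and 0.65. All 4 ERK phosphatases rose. Dusp6, the cytoplasmic phosphatase most tied to ERK, was at 37.9, 46.15, 47.5 and 49.1 CPM with vehicle and at 127, 106, 136 and 81.01 CPM with Igfbp2, and its log2 fold change was 1.32 (edgeR SE 0.22, adjusted p 0.00204). Dusp4 rose by 0.71 (edgeR SE 0.18, adjusted p 0.0136), a call lost without vehicle library 2 (adjusted p = 0.0565). Dusp5, a nuclear phosphatase, rose by 0.52 (edgeR SE 0.16, adjusted p 0.0349), a call lost without vehicle library 1, 2 or 3 or Igfbp2 library 5, 6 or 7 (up to 0.114) and with the GC and length offset. Among secreted targets, Hbegf, an EGF receptor ligand, rose from between 7.41 and 10.97 to between 20.2 and 39.98 CPM and Lif, a cytokine of the interleukin 6 family, from between 1.525 and 2.425 to between 5.89 and 9.52 CPM. Epha2, an ephrin receptor, rose by 1.46 (edgeR SE 0.30, adjusted p 0.00543). Etv5, a transcription factor downstream of FGF, stood at 314.5 to 387.5 CPM with vehicle and 403 to 427 CPM with Igfbp2 and was not called (adjusted p = 0.221).

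Serum response factor acts on many immediate early genes through the CArG box. RefSeq promoters (GRCm38.p6) were searched for it on both strands over the 250 bases before the start site. It was found in 125 of 11035 promoters of tested genes (1.13%), in 2 of the 11 called immediate early genes that had an entry and in 1 of the 9 called ERK targets. The promoters of Zfp36 and Dusp5 are shown over the 150 bases before the start, because both genes rose and hold the box close to it, with the box in capitals. Zfp36 lies at chr7:28379229-28379378 on the minus strand and Dusp5 at chr19:53528995-53529144 on the plus strand.
Zfp36: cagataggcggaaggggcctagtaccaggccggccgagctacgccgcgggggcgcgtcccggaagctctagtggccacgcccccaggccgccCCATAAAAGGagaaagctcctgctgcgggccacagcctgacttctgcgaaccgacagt
Dusp5: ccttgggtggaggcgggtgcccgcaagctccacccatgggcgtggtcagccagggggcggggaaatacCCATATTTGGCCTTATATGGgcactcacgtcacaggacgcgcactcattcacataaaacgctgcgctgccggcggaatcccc
Zfp36 has 1 box, which begins 58 bases before the start, and Dusp5 has 2, the farther of which begins 82 bases before it. A match describes the sequence and shows no binding, and no match in the other promoters says only that the letters are not in this window.

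Of 20 tested receptors for other mitogens 10 were higher (50%, against 14.2% of all genes) and none lower (median 0.5). The higher count was 5 with the GC and length offset, 3 with library totals and 4 without vehicle library 1 or 2, 5 without vehicle library 3 and 6 without Igfbp2 library 6 or 8. Fgfr2, one of the receptors for the FGF in the medium, was at 35.4, 36.1, 41.5 and 40.85 CPM with vehicle and at 53.3, 58.8, 57.5 and 61.7 CPM with Igfbp2, a log2 fold change of 0.59 (edgeR SE 0.12, adjusted p 0.00485). Fgfr1 and Fgfr3 rose by 0.49 and 0.63. Both calls were lost without single libraries, Fgfr1 without vehicle 1, 2 or 3 (adjusted p up to 0.0612) and Fgfr3 without vehicle 1, 2 or 4 or Igfbp2 6 or 8 (up to 0.0866), and both with the GC and length offset. Glucocorticoid-responsive genes showed 7 of 17 higher (41.2%, against 14.2% of all genes) and none lower (median 0.51). With library totals 4 were higher (median 0.23). The higher count was 5 with the GC and length offset and 5 without vehicle library 1, 2 or 3 or Igfbp2 library 5 or 6. Besides Crispld2 the called genes included Klf9, a Krüppel-like factor linked to quiescence of neural progenitors. It stood at 28.6, 31.5, 36.8 and 37.35 CPM with vehicle and 73.2, 73.6, 70.01 and 78.3 CPM with Igfbp2. Klf9 had a log2 fold change of 1.14 (edgeR SE 0.24, adjusted p 0.0064).

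**Figure D4:**
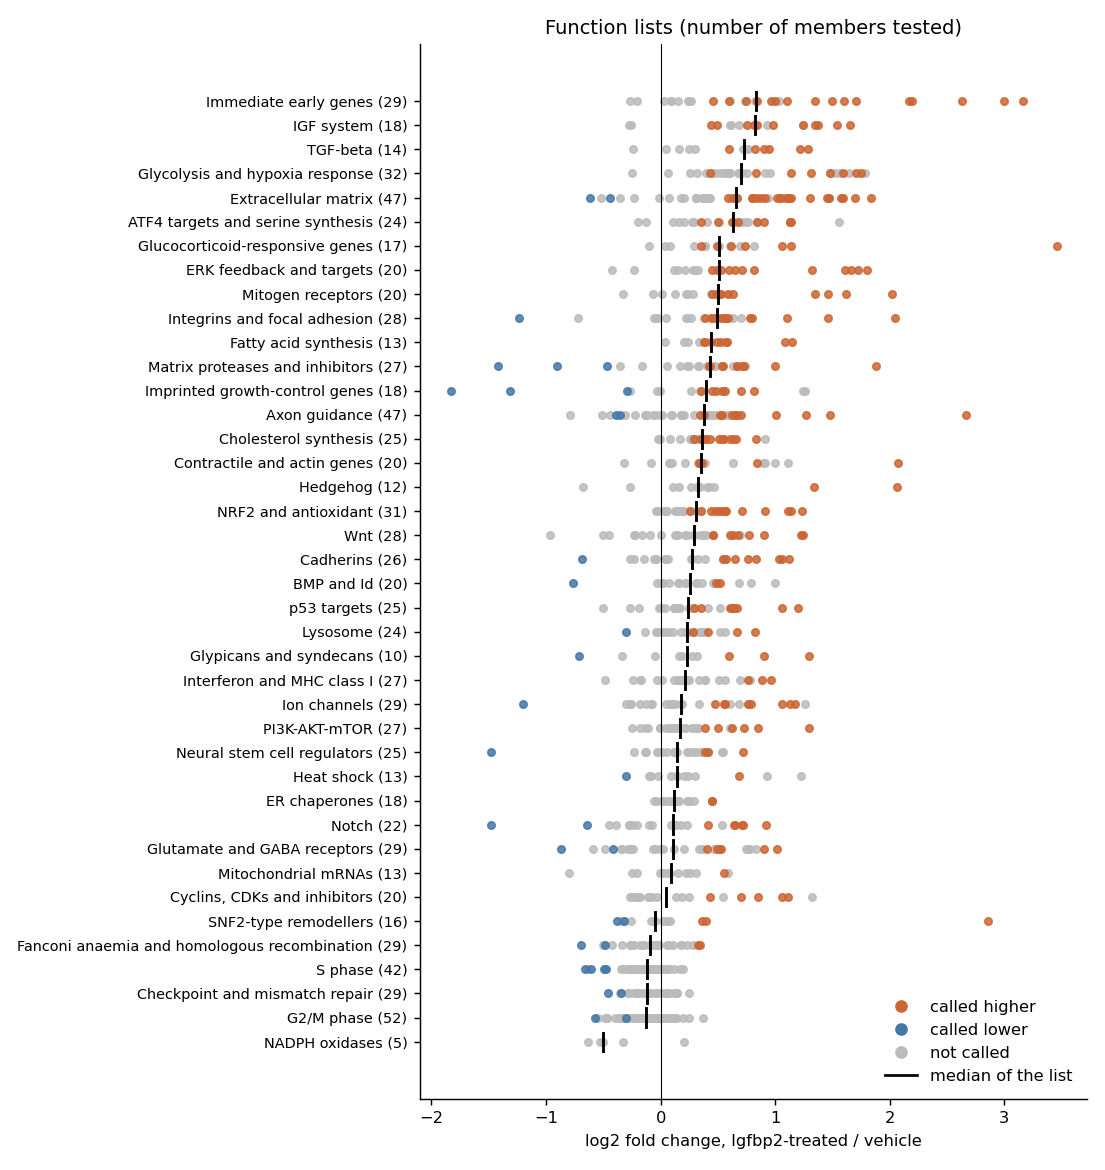
Log2 fold change of each tested member of 40 function lists, one point per gene, with members called higher in orange, called lower in blue and not called in grey, and a black bar at the median of the list. The number tested stands beside each name, and lists are ordered by their median. The immediate early list (0.83) and the IGF system (0.82) come first, and the S phase and G2/M lists hold no gene called higher.

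Notch genes moved in both directions. All 4 receptors were called higher, and the target Hes5 and the ligand Dll1 were lower. Hes5, a transcriptional repressor that Notch turns on in NSCs, stood at 78.8, 63.1, 66.1 and 42.6 CPM with vehicle and at 23.9, 24.8, 16.4 and 25.04 CPM with Igfbp2. The highest treated culture lay below the lowest vehicle-treated one, and the log2 fold change was -1.48 (edgeR SE 0.20, adjusted p 0.000869). WT cultures held 116, 143, 142.5 and 187 CPM. Dll1 fell from between 67.2 and 85.8 to between 42.97 and 57.3 CPM, with the call lost without vehicle library 1 or Igfbp2 library 5, 7 or 8 (adjusted p up to 0.069). Hes1, another Notch target, was at 24.96 to 31.35 CPM with vehicle and 32.3 to 51.55 CPM with Igfbp2 and was not called (adjusted p = 0.233). The rises of Notch1, Notch2, Notch3 and Notch4 were 0.65, 0.64, 0.92 and 0.71, but none was called with the GC and length offset, and the signs of Notch1 and Notch4 turned on TPM values. Notch2 lost its call without vehicle library 3 (adjusted p = 0.0515) and Notch4 without vehicle 1 or 2 or Igfbp2 6 or 7 (up to 0.0797). Over the 22 tested genes of the list 6 were higher (27.3%) and 2 lower (9.09%), against 14.2% and 10.7% of all genes. The median was 0.11 and became -0.1 with the offset and -0.16 with library totals. With library totals 1 was higher and 6 lower, against 4.13% and 33.5% of all genes. Id4, an inhibitor of helix-loop-helix factors downstream of BMP, fell from between 12.1 and 12.95 to between 6.31 and 9.44 CPM, a log2 fold change of -0.76 (edgeR SE 0.12, adjusted p 0.0017).

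Other morphogen lists held called genes as well, though most members were not called. In the TGF-beta list 6 of 14 tested genes were higher (42.9%, against 14.2% of all genes) and none lower (median 0.73). The count was the same with the GC and length offset. Tgfb2, a ligand, stood at 19.95, 17.85, 18.9 and 19.96 CPM with vehicle and at 26.7, 29.5, 25.6 and 34.4 CPM with Igfbp2, a log2 fold change of 0.60 (edgeR SE 0.10, adjusted p 0.00228). In the Wnt list 9 of 28 were higher (32.1%, against 14.2% of all genes) and none lower (median 0.29), 5 of them receptors. Higher calls numbered 5 without vehicle library 1, 2 or 3 or Igfbp2 library 7, with 3 higher and 3 lower with library totals. Lrp5, a coreceptor for Wnt, rose by 1.23 (edgeR SE 0.17, adjusted p 0.000869), and Fzd1, a frizzled receptor, by 0.90 (edgeR SE 0.16, adjusted p 0.00248). In the hedgehog list 2 of 12 tested genes were higher (16.7%, near the 14.2% of all genes) and none lower. The 2 were the ligands Shh and Dhh, and none of the 7 receptors was called. Dhh was at 2.74, 3.725, 3.97 and 4.104 CPM with vehicle and at 9.69, 7.75, 12 and 7.41 CPM with Igfbp2. Shh was scarce, at 0.174 to 0.522 and 0.962 to 2.01 CPM.

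Among the function lists, that of the extracellular matrix held the most called members. Of 47 tested, 22 were higher (46.8%) and 2 lower (4.26%), against 14.2% and 10.7% of all genes, with a median of 0.66. The GC and length offset left 17 higher and 3 lower. With library totals there were 14 higher and 5 lower, and the higher count was 14 without vehicle library 2. Several called members are known from the basement membrane, the sheet that lies under epithelia and vessels, and were chosen for description after their values were seen. Col4a2, a chain of type IV collagen, stood at 8.28, 9.58, 8.92 and 11.2 CPM with vehicle and at 24.1, 30.4, 26.1 and 33.8 CPM with Igfbp2. The arms did not overlap, and the log2 fold change was 1.59 (edgeR SE 0.29, adjusted p 0.00295). Its partner chain Col4a1 rose by 1.3 (edgeR SE 0.30, adjusted p 0.00873), Hspg2, the heparan sulfate proteoglycan perlecan, by 1.7 (edgeR SE 0.31, adjusted p 0.00298), Nid1, which links laminin to collagen, by 1.45 (edgeR SE 0.22, adjusted p 0.00133) and Lamc1, a laminin chain, by 1.1 (edgeR SE 0.17, adjusted p 0.00139). Col12a1, a collagen that decorates fibrils, was at 45, 51.4, 50.1 and 83.7 CPM with vehicle and at 169.9, 195, 207 and 252 CPM with Igfbp2, a log2 fold change of 1.84 (edgeR SE 0.19, adjusted p 0.000359). Tnc, the matricellular protein tenascin C of the NSC niche, rose from between 194 and 435 to between 639 and 1081 CPM. The 2 lower genes were the collagens Col9a3, at -0.44, and Col27a1, at -0.62, and the latter lost its call without Igfbp2 library 5 or 8 (adjusted p up to 0.0541).

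Receptors for the matrix and enzymes that trim it accompanied these genes. Of 28 integrin and focal adhesion genes 13 were higher (46.4%, against 14.2% of all genes) and 1 lower. The higher count was 5 with library totals and 6 without vehicle library 2, 7 without vehicle library 3 and 8 without vehicle library 1 or Igfbp2 library 6. Itga5, the alpha chain of the fibronectin receptor, an integrin that binds the motif Igfbp2 carries, stood at 23.5, 25.1, 26.2 and 29.6 CPM with vehicle and at 58.75, 53.7, 57 and 55.1 CPM with Igfbp2, a log2 fold change of 1.1 (edgeR SE 0.24, adjusted p 0.00653). Itga7, a laminin receptor chain, rose by 1.47 (edgeR SE 0.29, adjusted p 0.00428). Itgb4, the hemidesmosome chain, rose by 2.05 (edgeR SE 0.58, adjusted p 0.0223), a call lost without vehicle library 1, 2, 3 or 4 or Igfbp2 library 6 or 8 (adjusted p up to 0.0639). Npnt, an integrin ligand of basement membranes, rose from between 8.97 and 14.55 to between 35.7 and 45.96 CPM. Of 27 matrix proteases and inhibitors 10 were higher (37%) and 3 lower (11.1%), against 14.2% and 10.7% of all genes. Higher calls numbered 5 with the GC and length offset, 4 with library totals and 4 without vehicle library 1, 2 or 3 or Igfbp2 library 6, 5 without Igfbp2 library 5 or 7 and 6 without Igfbp2 library 8. Adamts14, which trims procollagen ends, was at 21.4, 23.03, 29.98 and 34.2 CPM with vehicle and at 92.5, 97.7, 122 and 87.1 CPM with Igfbp2, a log2 fold change of 1.88 (edgeR SE 0.38, adjusted p 0.00486), while WT cultures held 0.05397 to 2.18 CPM. Mmp2, a gelatinase, rose by 1.001, and Mrc2, a receptor that takes up collagen, by 1.89. Of the 10 cell-surface heparan sulfate proteoglycans, to which Igfbp2 can bind, 3 were higher (30%) and 1 lower (10%), against 14.2% and 10.7% of all genes. Sdc4 rose from between 69.3 and 85.8 to between 169.5 and 214 CPM and Gpc2 fell from between 23.65 and 32.7 to between 16.4 and 20.2 CPM.

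Markers that pericytes and fibroblasts share with these lists were examined beside the matrix result. Of 12 such markers 8 could be tested, and 4 were higher (50%, against 14.2% of all genes) and none lower. A log2 fold change above 0 was seen in 7 of the 8, and the median was 0.81. Among the 4 higher markers the chains of type I collagen were scarce, Col1a1 at 1.655 to 2.74 CPM with vehicle and 3.54 to 5.29 CPM with Igfbp2 and Col1a2 at 0.629 to 0.709 CPM and 1.72 to 2.36 CPM. The call of Col1a1 was lost without vehicle library 1, 2, 3 or 4 or Igfbp2 library 6, 7 or 8 (adjusted p up to 0.103). It was also lost with the GC and length offset, under which 2 of the 8 markers were higher. The summed level of the list was 83.9 to 88.1 CPM with vehicle and 72.0 to 97.3 CPM with Igfbp2 (exact permutation p = 0.4286, two-sided), and 3 markers had a median of 3 counts or fewer. Such a sum is set mostly by its most abundant markers and does not show the rises of the scarce ones. Endothelial markers summed to 7.84 to 10.8 CPM with vehicle and 14.0 to 18.3 CPM with Igfbp2 (exact permutation p = 0.0286, two-sided), with 4 of 9 testable and 1 higher. The part of either cell type in the matrix genes was not tested.

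Guidance and cytoskeletal genes also differed. Of 47 axon guidance genes 12 were higher (25.5%, against 14.2% of all genes) and 2 lower, with a median of 0.38. There were 7 higher and 3 lower with the GC and length offset and 5 higher and 5 lower with library totals, and the higher count was 6 without vehicle library 2 and 7 without vehicle library 1 or 3. Unc5b, described above, and its ligand Ntn1, the guidance cue netrin 1, rose together. Ntn1 stood at 149.7, 172, 193 and 207 CPM with vehicle and at 398, 442, 438 and 459 CPM with Igfbp2, a log2 fold change of 1.27 (edgeR SE 0.23, adjusted p 0.00313). Of 20 contractile and actin genes 5 were higher (25%, against 14.2% of all genes) and none lower. The higher count was 2 with library totals and 2 without vehicle library 1 or 2 or Igfbp2 library 7, 3 without vehicle library 3 and 11 without WT library 11. Tagln, an actin-binding protein of smooth muscle, was at 3.75, 4.06, 4.901 and 3.54 CPM with vehicle and at 22.8, 14.8, 13.4 and 17.5 CPM with Igfbp2, and Myh9, a non-muscle myosin, rose by 0.84 (edgeR SE 0.15, adjusted p 0.00283).

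The calls among genes of glycolysis and of the response to low oxygen depended on which libraries gave the spread. With the spread of all 12 libraries 8 of 32 were higher (25%, against 14.2% of all genes) and none lower (median 0.7). In the fit of the 8 Ncf1-/- libraries, which called 37.0% of all genes (19.3% higher and 17.7% lower), 29 were higher. In the fit without WT library 12 the count was 26. The count fell to 2 without vehicle library 1, to 3 without vehicle library 2 or 3 or Igfbp2 library 8 and to 5 without Igfbp2 library 7. In 28 of the 32 every treated culture lay above every vehicle-treated one, against 19.3% of all genes. Hk2, the hexokinase that commits glucose to glycolysis, was at 13.5, 20.7, 20.7 and 32.6 CPM with vehicle and at 55.7, 67.9, 81.8 and 80.96 CPM with Igfbp2, a log2 fold change of 1.71 (edgeR SE 0.52, adjusted p 0.0311). WT cultures 9 to 11 held 15.3, 11.3 and 19.4 CPM and WT library 12 held 84.1 CPM. Ero1l, an oxidase that forms disulfides in the endoplasmic reticulum, stood at 38.55, 40.98, 55.3 and 65.85 CPM with vehicle and at 220.0, 194, 297 and 301 CPM with Igfbp2, with 17.2, 15.6, 23.4 and 116 CPM in WT cultures. Its log2 fold change was 2.33 (edgeR SE 0.55, adjusted p 0.00959). The glucose transporters Slc2a1 and Slc2a3 rose by 1.31 ± 0.38 and 1.6 ± 0.48, Gpi1, the next glycolytic enzyme after hexokinase, by 1.48 ± 0.33, P4ha1, a collagen prolyl hydroxylase, by 1.13 ± 0.32 and Ankrd37, an ankyrin protein induced by low oxygen, by 1.75 ± 0.52 (SE). The calls of Hk2, Slc2a1, Slc2a3, P4ha1 and Ankrd37 were lost without single libraries. These were vehicle library 1, 2 or 3 or Igfbp2 library 6, 7 or 8 for Hk2 (adjusted p up to 0.0894), vehicle library 1, 2 or 3 or Igfbp2 library 7 for Slc2a1 (up to 0.0718), vehicle library 1, 2 or 3 or Igfbp2 library 5, 7 or 8 for Slc2a3 (up to 0.0852), vehicle library 1 or 2 or Igfbp2 library 8 for P4ha1 (up to 0.0686) and vehicle library 1, 3 or 4 or Igfbp2 library 5 or 8 for Ankrd37 (up to 0.0729).

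Hypoxia-inducible factors bind the core ACGTG. The core was found on either strand, where it reads CACGT, in 2383 of 11035 promoters of tested genes (21.6%), in 15 of 30 promoters of this list and in 4 of the 7 called members with an entry. The 150 bases before the start of these 4 genes are shown with the core in capitals (GRCm38.p6; Hk2 chr6:82774455-82774604 and Ankrd37 chr8:45999851-46000000 on the minus strand, Slc2a1 chr4:119108595-119108744 and P4ha1 chr10:59323146-59323295 on the plus strand).
Hk2: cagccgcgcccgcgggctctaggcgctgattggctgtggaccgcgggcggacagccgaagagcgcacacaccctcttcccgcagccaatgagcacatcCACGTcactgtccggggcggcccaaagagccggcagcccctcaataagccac
Slc2a1: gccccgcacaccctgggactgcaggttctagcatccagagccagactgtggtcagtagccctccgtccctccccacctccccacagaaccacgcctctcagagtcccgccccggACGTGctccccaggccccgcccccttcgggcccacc
P4ha1: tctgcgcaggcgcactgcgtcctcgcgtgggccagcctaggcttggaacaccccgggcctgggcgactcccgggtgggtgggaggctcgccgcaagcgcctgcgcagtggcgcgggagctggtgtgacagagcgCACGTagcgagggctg
Ankrd37: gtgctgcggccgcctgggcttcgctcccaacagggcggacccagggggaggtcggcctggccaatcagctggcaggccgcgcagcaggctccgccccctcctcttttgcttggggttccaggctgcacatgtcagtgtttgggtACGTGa
Within the bases shown the core begins 52, 36, 16 and 6 bases before the start in Hk2, Slc2a1, P4ha1 and Ankrd37. Over the 250 bases searched Hk2 and Ankrd37 hold 2 copies each, the farther of which begin 226 and 241 bases before the start. A core this short occurs often, as the share over all promoters shows, and the match is a description only.

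Called genes of lipid synthesis were all higher, but their number depended on the scaling. Of 25 genes of cholesterol synthesis 13 were higher (52%, against 14.2% of all genes) and none lower (median 0.36), and 9 of 13 genes of fatty acid synthesis were higher (69.2%) and none lower (median 0.44). With library totals cholesterol synthesis had 1 higher and 1 lower and fatty acid synthesis 3 higher and none lower, with medians of 0.09 and 0.16. The higher count for cholesterol synthesis was 7 without vehicle library 1 or 2 and 8 without vehicle library 3 or Igfbp2 library 5 or 7. For fatty acid synthesis it was 5 with the GC and length offset and 5 without vehicle library 2 or 3. Scd1, the desaturase that makes oleic acid, stood at 364, 382, 413 and 488 CPM with vehicle and at 849.8, 900.4, 963 and 945 CPM with Igfbp2, a log2 fold change of 1.15 (edgeR SE 0.14, adjusted p 0.000658). Its brain form Scd2 rose by 1.08 (edgeR SE 0.17, adjusted p 0.00162). Srebf2, the factor that controls cholesterol synthesis, rose by 0.54 and was not called with library totals.

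Lists of the amino acid and antioxidant responses also held higher genes. Of 24 targets of ATF4, a factor of amino acid shortage, 10 were higher and none lower (median 0.63), and of 31 targets of NRF2, the main factor of the antioxidant response, 14 were higher and none lower (median 0.31), against 14.2% and 10.7% of all genes. For the ATF4 list the higher count was 5 without vehicle library 1 or 2, 6 without vehicle library 3 or Igfbp2 library 6 or 8 and 16 without WT library 12, with 3 higher and 2 lower with library totals. For the NRF2 list it was 9 without vehicle library 2, with 6 higher and 2 lower with library totals. Both lists hold Slc7a11, the cystine importer that feeds glutathione. Slc7a11 was at 19.7, 21.5, 21.9 and 33.3 CPM with vehicle and at 49.95, 49.04, 63.75 and 49.2 CPM with Igfbp2, a log2 fold change of 1.14 (edgeR SE 0.20, adjusted p 0.00233). Gdf15, a stress cytokine, was at 5.05, 5.18, 5.43 and 7.275 CPM with vehicle and at 24.9, 22.4, 25.9 and 21.9 CPM with Igfbp2, and its log2 fold change was 2.05 (edgeR SE 0.40, adjusted p 0.00428). Asns, asparagine synthetase, rose by 0.62 (edgeR SE 0.14, adjusted p 0.00882). Srxn1, which reactivates peroxiredoxins, rose from between 15.3 and 19.7 to between 30.9 and 42.3 CPM, and Hmox1, heme oxygenase 1, from between 41.8 and 44.55 to between 66.6 and 93.01 CPM. Gstm1, a glutathione transferase, rose by 1.23, Gclc, the first enzyme of glutathione synthesis, by 0.56 and G6pdx, the first enzyme of the pentose phosphate pathway, by 0.57. Of the 14 NADPH oxidase genes, to which Ncf1 belongs, 5 could be tested and none was called.

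How many genes of proliferation were called depended on the scaling. Of 42 S phase genes none was higher and 4 lower, and of 52 genes of G2 and mitosis none was higher and 2 lower, against 14.2% and 10.7% of all genes. Their medians were -0.12 and -0.13. With library totals 19 S phase genes and 26 of G2 and mitosis were lower, against 33.5% of all genes. The lower count of S phase genes was 1 without vehicle library 4 or Igfbp2 library 8 and 2 without vehicle library 1 or 2 or Igfbp2 library 6. In the fit of the 8 Ncf1-/- libraries 9 S phase genes were lower, and 22 genes of G2 and mitosis were lower and 1 higher. That fit called 17.7% of all genes lower and 19.3% higher. Tyms, thymidylate synthase, fell from between 48.7 and 55.4 to between 31.2 and 35.9 CPM, a log2 fold change of -0.66 (edgeR SE 0.11, adjusted p 0.00195). Of 20 cyclins, kinases and their inhibitors 5 were higher and none lower, or 3 higher and 5 lower with library totals. They included both D-type cyclins that drive entry into the cycle and inhibitors that hold it. Ccnd2 stood at 537, 634, 699 and 875 CPM with vehicle and at 1184, 1179, 1529 and 1048 CPM with Igfbp2, a log2 fold change of 0.85 (edgeR SE 0.16, adjusted p 0.00309). Ccnd1 rose by 0.71 (edgeR SE 0.20, adjusted p 0.0207), a call lost without vehicle library 1, 2 or 3 or Igfbp2 library 7 (adjusted p up to 0.0748). Cdkn1a, the inhibitor p21, was at 128, 130.3, 149 and 145 CPM with vehicle and at 311, 285, 276 and 279 CPM with Igfbp2, a log2 fold change of 1.06 (edgeR SE 0.21, adjusted p 0.00477). Cdkn2b, the inhibitor p15, rose by 1.11 (edgeR SE 0.16, adjusted p 0.000956).

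Genes of DNA repair, which the study asked about in these cells, were called in numbers that depended on the scaling. Of 29 genes of the Fanconi anaemia and homologous recombination list 2 were higher and 2 lower (6.9% in each direction, against 14.2% and 10.7% of all genes), with a median of -0.09, and 3 were lower and none higher with the GC and length offset. With library totals 13 were lower and none higher, against 33.5% and 4.13% of all genes. In the fit of the 8 Ncf1-/- libraries 8 were lower and 3 higher, against 17.7% and 19.3% of all genes. The 2 higher calls became none without vehicle library 1 or 2 or Igfbp2 library 5 and 1 without vehicle library 4 or Igfbp2 library 6. Fanca, a core member of the Fanconi complex, stood at 18.6, 18.7, 17.3 and 18.6 CPM with vehicle and at 10.7, 10.6, 14.7 and 9.18 CPM with Igfbp2, a log2 fold change of -0.69 (edgeR SE 0.17, adjusted p 0.011). Fancl, the ubiquitin ligase of the complex, was at -0.48 (edgeR SE 0.13, adjusted p 0.0166) and was not called with the offset. The higher members, Fance (0.33) and Faap100 (0.34), turned negative on TPM values and lost their calls without single libraries, Fance without vehicle library 1, 2 or 4 or Igfbp2 library 5 or 6 (adjusted p up to 0.0959) and Faap100 without vehicle library 1 or 2 or Igfbp2 library 5 (up to 0.0621). Fancd2, the protein that the complex ubiquitinates, was at 24.3 to 31.15 CPM with vehicle and 25.9 to 27.8 CPM with Igfbp2 (adjusted p = 0.964). Of 29 checkpoint and mismatch repair genes none was higher and 2 lower (6.9%). The lower count was 19 with library totals, against 33.5% of all genes, and 9 in the fit of the 8 libraries, against 17.7%. Of 16 SNF2-type remodellers 3 were higher (18.8%), Smarcal1 among them, and 2 lower (12.5%). With library totals 1 was higher and 8 lower, beside the same 4.13% and 33.5% of all genes. The higher count was 1 without vehicle library 1, 2 or 3. Of 25 targets of p53 9 were higher (36%, against 14.2% of all genes) and none lower (median 0.24). The higher count was 5 without vehicle library 2 or 3 or Igfbp2 library 5, and with library totals there were 3 higher and 5 lower. Besides Cdkn1a they included Phlda3, an inhibitor of AKT, at 0.66 (edgeR SE 0.11, adjusted p 0.00228), and Zmat3, an RNA-binding protein, at 0.64 (edgeR SE 0.13, adjusted p 0.0046). The median of the p53 list was -0.03 with library totals.

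After the Y-linked genes and unnamed gene models, the largest falls included noncoding RNAs and genes of splicing. Miat, a long noncoding RNA of neural progenitors that gathers splicing factors, was at 18.3, 14.6, 15.2 and 7.39 CPM with vehicle and at 2.55, 4.87, 4.11 and 4.12 CPM with Igfbp2. The arms did not overlap, and the log2 fold change was -1.82 (edgeR SE 0.28, adjusted p 0.00139). Neat1, the scaffold of nuclear paraspeckles, stood at 117, 125, 92.7 and 75.3 CPM with vehicle and at 34.2, 39.1, 35.96 and 36.5 CPM with Igfbp2, a log2 fold change of -1.49 (edgeR SE 0.28, adjusted p 0.00356). Malat1, a noncoding RNA of nuclear speckles, stood at 5583, 5669, 4934 and 4531 CPM with vehicle and at 2138, 2691, 2682 and 2910 CPM with Igfbp2, at -0.99 (edgeR SE 0.14, adjusted p 0.00091). Sox2ot, which overlaps the stem cell gene Sox2, fell from between 37.4 and 43.5 to between 13.7 and 17.65 CPM. These 3 calls, those of Neat1, Malat1 and Sox2ot, held under each alternative run for them.

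Several falling mRNAs encode proteins of RNA splicing or have introns that are often retained in the nucleus. Clk1, a kinase that phosphorylates splicing factors, was at 47.8, 44.99, 40.35 and 40.4 CPM with vehicle and at 15.45, 15.9, 19.3 and 18.3 CPM with Igfbp2, a log2 fold change of -1.33 (edgeR SE 0.16, adjusted p 0.000546). Its relative Clk4 was at -0.70 (edgeR SE 0.11, adjusted p 0.00154). Rsrp1, a serine-arginine rich protein, stood at 109, 96.95, 91.6 and 73.7 CPM with vehicle and at 30.7, 33.5, 35.2 and 36.2 CPM with Igfbp2, at -1.45 (edgeR SE 0.17, adjusted p 0.000525). Tia1, an RNA-binding protein of stress granules, fell from between 74.8 and 84.1 to between 30.9 and 39.7 CPM and Leng8 from between 81.7 and 120.2 to between 40.98 and 47.9 CPM. Wsb1, a subunit of a ubiquitin ligase, was at 119.6, 107, 96.7 and 79.8 CPM with vehicle and at 26.03, 29.3, 35.5 and 30.9 CPM with Igfbp2, a log2 fold change of -1.73 (edgeR SE 0.21, adjusted p 0.000534). As families chosen after the values were seen, 7 of 11 serine-arginine splicing factors and 4 of 6 genes of the Clk kinases and cyclin L were lower and none higher, and 92 of 333 zinc finger genes with the prefix Zfp were lower and 18 higher. The shares called lower were 63.6%, 66.7% and 27.6%, against 10.7% of all genes. With the GC and length offset the lower counts were 7, 5 and 86.

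By gene class the direction was uneven. Of 13458 protein-coding genes 15.9% were higher and 8.11% lower (2145 and 1091), but the balance turned with the scaling, to 601 higher and 4223 lower with library totals, 1368 and 1876 with upper-quartile factors and 1589 and 1602 with the GC and length offset. Of 376 long intergenic noncoding RNAs 10 were higher and 115 lower (2.66% and 30.6%, median -0.51), against 14.2% and 10.7% of all genes. With library totals 3 of them were higher and 189 lower, against 4.13% and 33.5% of all genes. Of 411 antisense transcripts 4 were higher and 106 lower in the main fit (0.973% and 25.8%). Without strand information, reads of an antisense gene and its partner cannot be told apart. Small nucleolar RNAs went the other way, with 32 of 54 higher (59.3%, against 14.2% of all genes) and none lower (median 0.91). On TPM values, however, 1 was higher and 6 lower, and with library totals 17 were higher and 1 lower. The higher count was 13 without Igfbp2 library 8, 14 without vehicle library 2, 15 without vehicle library 3 and 17 without vehicle library 4. The share of TPM taken by short structural RNAs was 59.1 ± 2.03% (SD, n = 4) with vehicle and 67.0 ± 4.89% (SD, n = 4) with Igfbp2, a difference of 7.96 percentage points (exact permutation p = 0.0286, two-sided). Among protein-coding genes the share called higher rose with GC content, from 5.39% in the group with the lowest GC (median 41.3%) to 26% in the group with the highest (58.1%), and the share called lower went from 15.5% to 4.79%. Across these genes, which are not independent replicates, Spearman's rho of fold change with GC content was 0.27 and with length 0.08. An offset for both kept 2719 of 3899 calls. The part of library composition in these class differences was not tested.

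**Figure D5:**
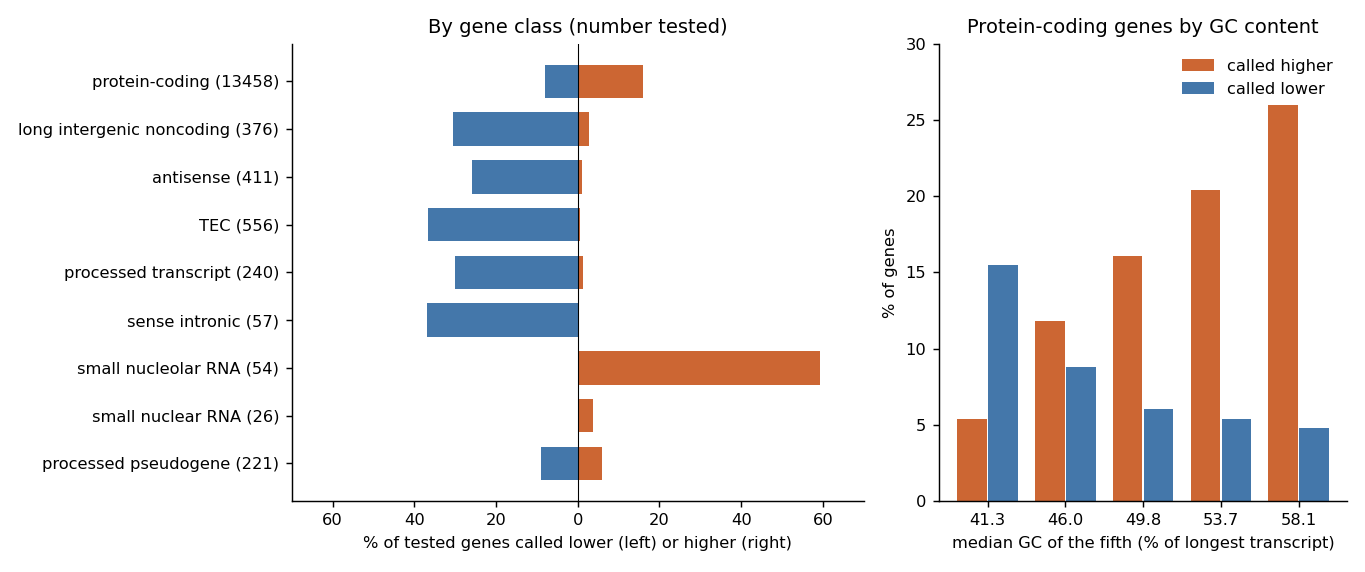
Share of tested genes called higher and called lower by gene class (left) and, for protein-coding genes, in 5 equal groups by GC content (right). Called genes of the long noncoding classes were mostly lower and those of small nucleolar RNAs higher, and the share called higher climbed from 5.39% to 26% from the lowest to the highest GC group.

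Markers of NSCs were abundant in both arms. The 12 NSC markers, all of them tested, summed to 9147 to 9914 CPM with vehicle and to 9514 to 10060 CPM with Igfbp2. Neuroblast and neuron markers, of which 14 of 15 could be tested, summed to 521.9 to 590.6 CPM with vehicle and to 475.1 to 510.5 CPM with Igfbp2 (exact permutation p = 0.0286, two-sided), and 3 were lower (21.4%, against 10.7% of all genes) and none higher. Of the 14, 6 had a log2 fold change above 0. Every treated culture lay above every vehicle-treated one in 3 of the 14 and below in 5, against 19.3% and 14.7% of all genes. Most of the sum came from Map2, a microtubule protein of dendrites, at 459 to 525 CPM with vehicle and 417 to 442 CPM with Igfbp2, which was not called (adjusted p = 0.158). Of those called, Dcx, a microtubule protein of migrating neuroblasts, was at 7.97, 7.55, 7.11 and 8.36 CPM with vehicle and at 3.71, 3.97, 4.45 and 5.25 CPM with Igfbp2, a log2 fold change of -0.83 (edgeR SE 0.20, adjusted p 0.0113). Tubb3, the neuronal tubulin, was at 11.6, 11.95, 12.45 and 9.44 CPM with vehicle and 7.199, 8.41, 7.125 and 7.02 CPM with Igfbp2, at -0.61 (edgeR SE 0.15, adjusted p 0.0114). The third was the homeobox gene Dlx1, whose call was lost without vehicle library 1, 2, 3 or 4 or Igfbp2 library 5, 6, 7 or 8 or WT library 9 (adjusted p up to 0.111). Astrocyte markers summed to 2690 to 3226 and 2874 to 3876 CPM in the respective arms, oligodendrocyte precursor markers to 3227 to 3843 and 3459 to 3886 CPM, and markers of myelinating oligodendrocytes to 223.5 to 280.3 and 233.3 to 314.7 CPM. Of 5 tested ependymal markers only Foxj1, the factor of motile cilia, was called. It made up most of the list's sum, which was 32.4 to 39.7 CPM with vehicle and 58.1 to 81.3 CPM with Igfbp2. Foxj1 was at 36.3, 33.96, 36.8 and 29.96 CPM with vehicle and at 74.4, 78.01, 54.9 and 72.1 CPM with Igfbp2, a log2 fold change of 1.03 (edgeR SE 0.33, adjusted p 0.0359), and its call was lost without vehicle library 1, 2, 3 or 4 or Igfbp2 library 5, 6 or 8 (up to 0.0883). Microglia markers were near absent, with 3 of 12 testable and a sum of at most 3.29 CPM, and no erythroid marker could be tested.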

How the data were processed

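The authors mapped reads of rRNA-depleted total RNA with Bowtie2 and computed the deposited expected counts, TPM and FPKM per gene with RSEM (GRCm38 per the submitters' processing notes, versions not given in the sources used here). Depth was 18201622 to 34086554 counts per library. A merged TPM table repeats the per-sample values and was not used. Expected counts were rounded to whole numbers (15.9% were not whole). Of 45792 gene IDs, 45143 took a symbol and coordinates from GENCODE mouse release M21. Genes passing edgeR's filterByExpr over the 3 groups (15706, with 99.91% of counts) were scaled by TMM factors and tested with edgeR 4.0.16 in R 4.3.3 (quasi-likelihood, all 12 libraries, contrast of Igfbp2-treated minus vehicle-treated, Benjamini-Hochberg adjustment over all genes tested, called under 0.05). CPM values are TMM-scaled, and fold changes are log2 estimates. Each SE beside a fold change was back-calculated as the absolute log2 fold change over the square root of the quasi-likelihood F statistic. The share of short structural RNAs was summed over a list of 5 genes for RNAs such as 7SL, 7SK, RNase P and RNase MRP RNA. It did not cover the whole classes of small nuclear and nucleolar RNAs. The alternative with structural RNAs removed before scaling used a wider set, which also held these classes and ribosomal RNAs. Single values of 4 against 4 libraries were compared by exact two-sided permutation tests, whose smallest p is 0.0286.

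Alternatives were DESeq2 1.42.0, other scalings and filters, limma 3.58.1 on log2(TPM + 1) or log2(TPM + 0.1), the study's Tukey test on TPM, a fit of the 8 Ncf1-/- libraries with and without a block for the study's pairs, leaving out each library, and, added after the data were seen, an offset for GC content and length (a spline with 5 degrees of freedom) and protein-coding genes only. The scripts were tested on simulated counts. Genes named are the top 25 rises and the top 25 falls among called genes of at least 5 CPM whose arms do not overlap, up to 4 called members per list with the largest change, members whose role is described, Igfbp2 and the 10 tested genes on either side, sex-linked genes and Ncf1. Unnamed gene models and genes with a near-identical copy were passed over, and some genes that the rule selects are not reported here. The members and lists were chosen with earlier results of these data known. No batch is named in the labels. Promoters were taken from a RefSeq table (GRCm38.p6). For Arc, Egr1, Egr3, Ier2, Klf10, Dusp4, Hbegf, Spry4 and Slc2a3 it held no entry.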

Additional observations from a re-analysis of the deposited data

Results flagged for a closer look

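In 316 checks of 4 values of a named gene or library measure within one arm, 23 had a highest or lowest library whose gap to the next was a larger share of the whole range than Dixon's 95% critical value. Chance alone marks about 1 in 20 such groups. Of the 23, 12 were in vehicle-treated and 11 in Igfbp2-treated cultures, and 9 were of vehicle library 4.

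Vehicle library 4 lay above the other vehicle-treated libraries in Col12a1 (83.7 CPM), Gdf15 (7.28 CPM), Hmox1 (44.5 CPM), Map2 (525 CPM) and Slc7a11 (33.3 CPM). It lay below them in Col27a1 (7.8 CPM), Fos (21.5 CPM), Ier2 (11.9 CPM) and in the share of TPM from structural RNAs (56.0%). In Col12a1, Gdf15, Hmox1, Slc7a11 and Col27a1 it was therefore the vehicle-treated culture nearest to the Igfbp2-treated ones, and in Fos, Ier2 and Map2 the one farthest from them. Vehicle library 2 was apart in Col1a2 (0.629 CPM) and in Eif2s3y, a Y-linked gene (26.6 CPM), and vehicle library 3 in Fanca (17.3 CPM).

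Among treated cultures, Igfbp2 library 5 was apart in Fgfr1 (241 CPM), Pecr (8.03 CPM), Spry2 (187 CPM) and Xist (166 CPM). Igfbp2 library 7 was apart in Fancd2 (27.8 CPM), Hes5 (16.4 CPM), Scg2 (17.4 CPM) and Slc7a11 (63.7 CPM). Igfbp2 library 6 was apart in Ddx3y, a Y-linked helicase (1.26 CPM), and Tubb3 (8.41 CPM), and Igfbp2 library 8 in Igfbp5 (754 CPM).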

How the results depend on the processing

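The main count was 3923 genes, 2238 higher and 1685 lower. It moved by more than 1.5 times, in total or in a direction, with library totals (5906, with 648 higher and 5258 lower, where the median of all genes was -0.23), upper-quartile factors (1427 higher, 2566 lower), a mean of at least 5 CPM (1436 higher), the stricter 0.01 threshold (1514, 884 and 630), a minimum change of 2-fold (914, 421 and 493), limma on log2(TPM + 1) (6354, 200 and 6154, or 160 and 5497 without a filter), limma on log2(TPM + 0.1) (6519, 165 and 6354) and the Tukey test on TPM (2149, 64 higher). In the fit of the 8 Ncf1-/- libraries 2775 were lower, and with the GC and length offset there 6418 were called, 3358 of them lower. Leaving out 1 library gave 2272 to 4788 calls, 1062 to 2426 higher and 1033 to 2362 lower. DESeq2 called 4287. The cause of these shifts was not tested, other than that fewer genes enter under the stricter thresholds. With a replicate block for the study's pairs, whose residuals correlated at -0.0673 to 0.0328, 5423 genes were called (2927 higher and 2496 lower) against 5809 without it, and with the replicate block and the GC and length offset 5488 (2827 lower). That pairing has no support in the labels, and other pairs correlated at -0.248 to 0.257.

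Of 142 named genes that were called, 32 stayed called in one direction under every alternative run for them, 110 lost the call under at least 1, and 9 uncalled ones passed the threshold under some. Signs turned on TPM values for Pnkd (log2 fold change -0.28, -0.28 and -0.27 with pseudocounts of 1 and 0.1 and in the Tukey test), Notch4 (-0.23, -0.43 and -0.23), Fance (-0.20, -0.22 and -0.17), Faap100 (-0.16, -0.18 and -0.15) and, with the pseudocounts, Notch1 (-0.022 and -0.023). At the depth of these libraries, genes of a few counts such as Ncf1 could not be tested.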

Other observations

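Genes of ion channels and of transmitter receptors, which proliferating NSCs use at low levels, were not described above. Of 29 ion channel genes 8 were higher and 1 lower (14.2% and 10.7% of all genes), with 5 higher and 4 lower with library totals, and the higher count was 4 without vehicle library 2 and 5 without vehicle library 3. Kcnj10, the potassium channel Kir4.1 of glia, was at 418, 464, 452 and 594 CPM with vehicle and at 945, 1089, 1194 and 987 CPM with Igfbp2, a log2 fold change of 1.13 (edgeR SE 0.14, adjusted p 0.000525), and WT cultures held 342.5 to 465 CPM. The lower gene was Scn1a, a neuronal sodium channel, at 1.18 to 1.55 CPM with vehicle and 0.421 to 0.687 CPM with Igfbp2. Of 29 glutamate and GABA receptor genes 6 were higher and 2 lower, or 2 higher and 7 lower with library totals. The AMPA receptor subunits moved in opposite directions. Gria1 stood at 26.9, 26.7, 28.04 and 29.7 CPM with vehicle and at 56.5, 55.65, 52.99 and 59.6 CPM with Igfbp2, at 1.01 (edgeR SE 0.24, adjusted p 0.0114). Gria2, the subunit that keeps calcium out, stood at 73.6, 74.1, 67.9 and 72.4 CPM with vehicle and at 34.2, 38.2, 44.2 and 41.4 CPM with Igfbp2, at -0.87 (edgeR SE 0.14, adjusted p 0.00169). Neither pair of arms overlapped.

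Among imprinted genes of growth control 7 of 18 were higher (38.9%) and 3 lower (16.7%), against 14.2% and 10.7% of all genes. With library totals none was higher and 6 lower, against 4.13% and 33.5% of all genes, so the lower count was near the share of all genes there. Higher calls numbered 2 without vehicle library 2, 3 without vehicle library 1 and 4 without vehicle library 3 or Igfbp2 library 6 or 7, and the lower count was 1 without vehicle library 1 or 3 or Igfbp2 library 7. Meg3, a maternally expressed noncoding RNA, was near its detection limit, at 0.958, 1.02, 1.104 and 0.746 CPM with vehicle and 0, 0.421, 0.239 and 0.393 CPM with Igfbp2, and its call was lost without vehicle library 1, 2 or 3 or Igfbp2 library 5 or 7 (adjusted p up to 0.0783). Counts for further lists, beside 14.2% higher and 10.7% lower among all genes, were low or near that share for chaperones of the endoplasmic reticulum (2 of 18 higher), heat shock genes (1 higher and 1 lower of 13), interferon and class I genes (3 of 27 higher), BMP and Id genes (2 higher and 1 lower of 20), NSC regulators (3 higher and 1 lower of 25), lysosomal genes (4 higher and 1 lower of 24) and mitochondrial mRNAs (1 of 13 higher). Of 26 cadherins 8 were higher (30.8%) and 1 lower, with 6 higher and 4 lower with library totals.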
